A study of Rattus norvegicus with 12 samples.

Results

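The Kruppel-like factor genes Klf2, Klf3, Klf4, Klf5, Klf6, Klf7, Klf9, Klf10, Klf13 and Klf15 were followed across both ventricles of neonatal Sprague-Dawley (SD) rats. Their rows were found by gene name, with earlier results of these data known when the genes were chosen, and they are 10 of the 32545 genes in the expression table. The rats had a fistula opened surgically from the abdominal aorta to the inferior vena cava at P1 (postnatal day 1), which loads both ventricles with volume (volume overload, VO), or a sham operation, and the ventricles were taken at P7. RNA from the free wall of the left ventricle (LV) and of the right ventricle (RV) gave 4 groups of 3 libraries each, named sham LV and VO LV for the left side and sham RV and VO RV for the right. The groups share an operation at P1 and the age at harvest. The methods describe isoflurane and ice cooling for anesthesia and local lidocaine, and the labels name no genetic change. The labels do not say which libraries came from the same rat, so the p-values measure the spread between these libraries only. Levels are FPKM (fragments scaled to gene length and library size), which allow genes of different length to be compared.

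Kruppel-like factors are transcription factors whose zinc fingers bind CACCC and GC-rich elements in promoters and enhancers. Klf2 and Klf4 are switched on by blood flow in endothelial cells, Klf10 and Klf6 belong to the genes that respond early to growth signals, and Klf9 is a target of thyroid hormone and glucocorticoids. Klf15 directs fatty acid and amino acid use in heart muscle and restrains hypertrophy, and Klf13 is a partner of the cardiac factor Gata4.

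The difference between the ventricles in their response to VO passed the test for Klf13 and Klf9. Both genes had a lower mean in the sham LV and, after VO, a higher one in the LV and a lower one in the RV, although neither single response passed the test. The response in the LV exceeded that in the RV by 1.68 for Klf13 and by 1.22 for Klf9 on the log2 scale, and both calls were lost in 8 of the 12 fits that left out 1 library. Klf15 leaned the same way and did not pass. Klf2, Klf4 and Klf10 had higher mean levels in VO RV than in sham RV, without passing the test, and Klf3 had the smallest spread of group means, the highest being 1.05 times the lowest.

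RefSeq promoter entries (build GRCr8) matched 7 of the 10 genes by symbol. Klf2, Klf10 and Klf13 had no match, so the gene with the largest difference of responses, Klf13, is absent here. The 250 bases before the start are shown for Klf9 and Klf15, which leaned in opposite directions in the ventricles, and for Klf4, which did not. Klf7, whose smaller values in the ventricles also had opposite signs, holds neither of the marked motifs. Capitals mark the half-site of the cAMP response element (TGACG, or CGTCA on the other strand) and the E-box CACGTG.
Klf9: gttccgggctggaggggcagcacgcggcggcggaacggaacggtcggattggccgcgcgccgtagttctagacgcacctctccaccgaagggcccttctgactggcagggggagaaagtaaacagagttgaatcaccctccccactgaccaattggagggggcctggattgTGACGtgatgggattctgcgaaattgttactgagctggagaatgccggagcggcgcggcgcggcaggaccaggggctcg
Klf15: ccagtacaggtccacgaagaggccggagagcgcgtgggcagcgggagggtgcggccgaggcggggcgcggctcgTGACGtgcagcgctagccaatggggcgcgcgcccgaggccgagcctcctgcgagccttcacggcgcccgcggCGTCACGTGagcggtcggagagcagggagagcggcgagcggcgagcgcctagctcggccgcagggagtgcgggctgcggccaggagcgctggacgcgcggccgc
Klf4: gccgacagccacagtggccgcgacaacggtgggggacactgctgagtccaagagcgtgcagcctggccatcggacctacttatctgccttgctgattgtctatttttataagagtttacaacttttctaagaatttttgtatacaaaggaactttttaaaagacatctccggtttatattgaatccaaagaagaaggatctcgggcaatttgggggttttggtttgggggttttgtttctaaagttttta

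The Klf9 stretch lies at chr1:230126396-230126645 on the plus strand, the Klf15 stretch at chr4:124522765-124523014 on the plus strand, and the Klf4 stretch at chr5:75078593-75078842 on the minus strand. The motifs were chosen with the sequences in view and were searched on both strands. Klf9 holds 1 half-site and Klf15 holds 2, the second of which overlaps the single E-box, and Klf4 holds neither motif. Klf5 also holds 1 half-site, and Klf6 holds 1 E-box. Of all 33469 promoters of this length, 18.2% hold the half-site and 5.59% the E-box. The CCAAT box is found 3 times in Klf9 and in Klf5, 4 times in Klf6 and 1 time each in Klf15 and Klf3, against 34.0% of all promoters with at least 1. In Klf9, 2 of the 3 matches overlap on opposite strands, in the letters CCAATTGG. The CACCC box, to which the factors themselves bind, is found 1 time each in Klf9 and Klf15, 2 times each in Klf5 and Klf7 and 4 times in Klf3, against 49.2% of all promoters. Klf4 holds TATAAA 2 times, a motif of 12.9% of all promoters, but both lie on the strand opposite to the printed one, where they read TTTATA. Its 43.2% of G and C is below that of Klf9 (63.6%) and Klf15 (77.2%). The GC box GGGCGG, present in 30.5% of all promoters, is found 1 time each in Klf6 and Klf7. The glucocorticoid half-site TGTTCT (17.5% of all promoters) and the full TGACGTCA element (1.59%) are in none of the 7 stretches. Such matches describe letters and not bound sites. The start is that of the RefSeq entry. Whether transcription starts there in these ventricles was not tested, so a stretch may not be the promoter in use.

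The 10 genes differed widely in level. Klf2 had the highest mean over the 12 libraries, 90.2 FPKM, followed by Klf4 with 27.1, Klf10 with 15.7, Klf9 with 12.6, Klf3 with 12.1, Klf6 with 11.0 and Klf15 with 10.9. Klf13 had a mean of 9.66 FPKM, on a gene model of only 602 bases that collected between 48 and 191 reads. Klf7 had a mean of 2.53 FPKM from 89 to 176 reads. A second row named Klf7, of 636 bases and inside the span of the first, had 2 reads in sham LV replicate 3 and none in the other libraries, and no test was made of it. Klf5, a factor of smooth muscle and of remodelling tissue, had 0.499 FPKM from 13 to 43 reads, which is just under the mean of 0.5 FPKM that was asked for testing, so 9 of the 10 genes were tested among 13910. The plot of the levels by library shows the points behind these means.

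**Figure D1:**
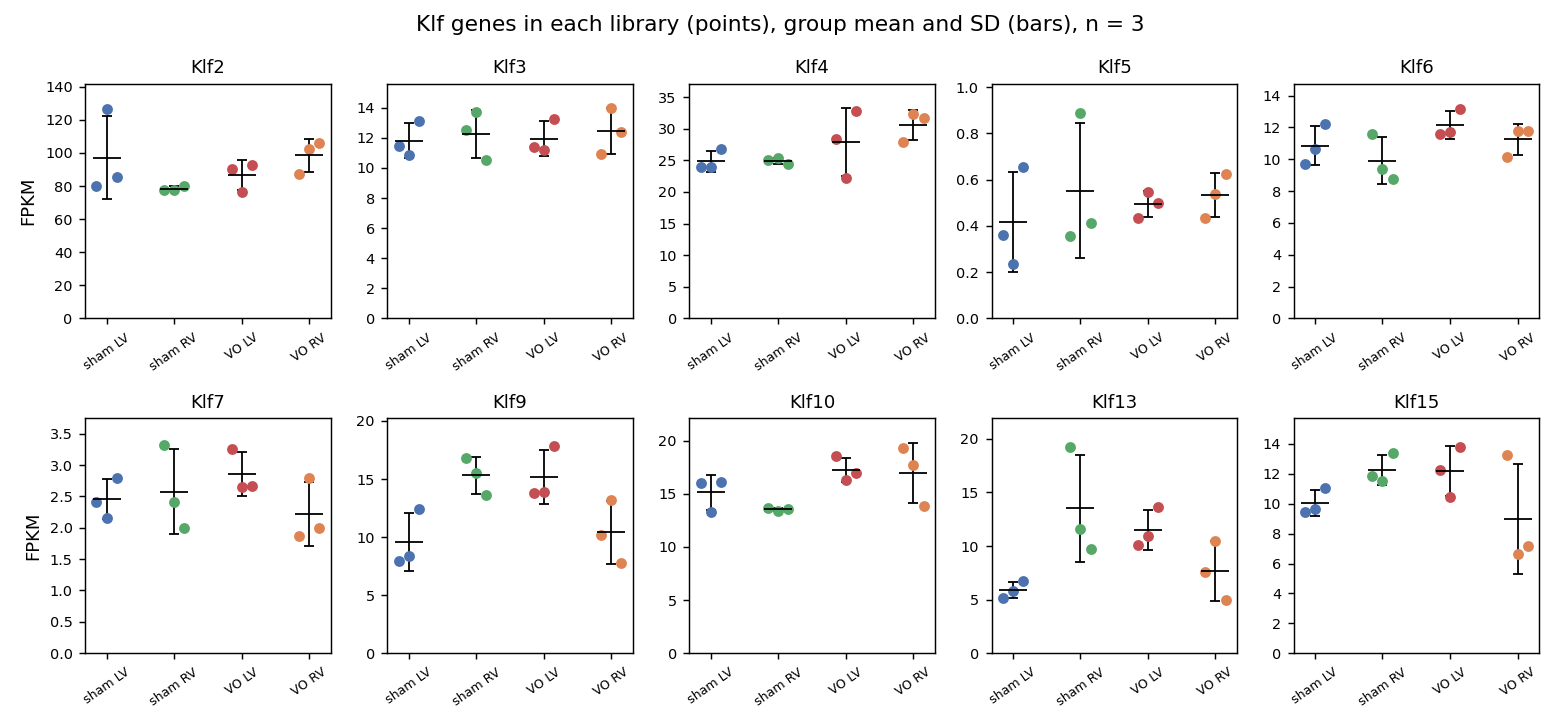
FPKM (vertical axes, each starting at 0) of 10 Klf genes in the 3 libraries of each group, with the group mean and SD as bars. Klf13 and Klf9 are low in sham LV, between 5.19 and 6.71 and between 7.96 and 12.4 FPKM, while the 3 sham RV libraries of each gene lie above them.

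Some libraries stood apart. Between 14121713 and 16871371 reads lay on genes. The summed FPKM of 10 ventricular muscle markers was 21212 in VO RV replicate 2 and between 25587 and 33004 in the others. The summed FPKM of 5 atrial markers was 4559 in that library and 1065 in sham RV replicate 1, against 212 to 311 in the other RV libraries. In the LV the sum was 706 to 1156 in sham and 893 to 1729 in VO libraries. The name atrial-rich, used below for these 2 RV libraries, is thus relative to the other RV libraries. Mitochondrial transcripts held 22.2% of the FPKM in sham LV replicate 2 and 27.0% to 38.9% elsewhere. Y-linked transcripts were high in 2 of the 3 libraries of each sham group, in 0 of 3 of VO LV and in 1 of 3 of VO RV, so sex and surgery are partly confounded. The part of these differences in each result was not tested beyond the values given beside it. In whole tissue, fewer cells of a type and less RNA per cell cannot be told apart.

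Klf13 (ENSRNOG00000015822) is listed at 124772596 to 124803363 of chromosome 1 in the deposited table, whose genome build is not given in the sources used here. Its FPKM were 5.19, 5.84 and 6.71 in sham LV and 19.2, 11.6 and 9.73 in sham RV. They were 10.1, 10.9 and 13.6 in VO LV and 7.58, 10.5 and 4.95 in VO RV. All sham LV libraries were thus below all sham RV and all VO LV libraries, whereas VO RV overlapped each of the other groups, and sham RV replicate 1 was the highest of all. The group means (± SD, n = 3) were 5.91 ± 0.77 FPKM in sham and 11.5 ± 1.9 in VO for the LV, and 13.5 ± 5.0 in sham and 7.67 ± 2.8 in VO for the RV. VO LV exceeded sham LV by 0.91 (SE 0.27) on the log2 scale, with an adjusted p of 0.0923 by limma. VO RV was at −0.78 (SE 0.27) against sham RV, with an adjusted p of 0.547, and at −0.50 without sham RV replicate 1. The difference of these responses was 1.68 (SE 0.38), with a 95% interval from 0.85 to 2.52 and an adjusted p of 0.0396, which passed. Without sham RV replicate 1 it was 1.41 (adjusted p = 0.0869). Without sham LV replicate 1 or 2, sham RV replicate 2, VO LV replicate 1, 2 or 3 or VO RV replicate 3 it lay between 1.42 and 1.77, and its adjusted p, between 0.0590 and 0.114, no longer passed. Leaving out sham RV replicate 1 and VO RV replicate 2 together gave 1.65 (adjusted p = 0.0589), and a covariate of the Y-linked genes gave 1.64 (adjusted p = 0.0652).

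Klf9 (ENSRNOG00000014215, chromosome 1, 240908483 to 240933198) had 7.96, 8.34 and 12.4 FPKM in sham LV and 16.9, 15.5 and 13.7 in sham RV. It had 13.8, 13.9 and 17.8 FPKM in VO LV and 10.2, 13.2 and 7.79 in VO RV. The sham groups did not overlap, and neither did VO and sham within either ventricle or the ventricles after VO. The means (± SD, n = 3) were 9.57 ± 2.5 FPKM in sham and 15.2 ± 2.3 in VO for the LV, and 15.3 ± 1.6 in sham and 10.4 ± 2.7 in VO for the RV. In all 4 of these pairs an exact permutation test (two-sided, on FPKM) gave 0.10, the smallest p that 3 libraries against 3 allow. VO LV against sham LV was 0.66 (SE 0.20, adjusted p = 0.0989) and VO RV against sham RV −0.56 (SE 0.20, adjusted p = 0.552). The difference of the responses was 1.22 (SE 0.29, 95% interval 0.59 to 1.85, adjusted p = 0.0422). It was 1.11 without sham LV replicate 1 and 1.14 without sham LV replicate 2. It was 1.16 without sham RV replicate 1 and 1.22 without sham RV replicate 2. It lay between 1.11 and 1.28 without 1 VO LV library and was 1.04 without VO RV replicate 3. In each of these 8 cases the call was lost, with adjusted p from 0.0645 to 0.117. With both atrial-rich RV libraries left out it was 1.34 (adjusted p = 0.0697), and with the Y-linked covariate 1.14 (adjusted p = 0.0607).

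The libraries low in Y-linked transcripts were also read alone, without a test. In these, Klf13 was 6.71 FPKM in the single sham LV library and 10.1 to 13.6 in the VO LV libraries, and 9.73 in sham RV against 7.58 and 10.5 in VO RV. Klf9 was 12.4 in sham LV and 13.8 to 17.8 in VO LV, and 13.7 in sham RV against 10.2 and 13.2 in VO RV. Each sham group is 1 library here, so these are values only. The lone sham LV library lay below the VO LV libraries for both genes, for Klf9 by a narrow gap, and for Klf13 the lone sham RV library lay between the VO RV libraries.

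Some markers of ventricular muscle also had a larger response in the LV. Of 10 such markers 3 were called, against 4.19% of all tested genes, Ryr2 by 1.61 (adjusted p = 0.0249), Myh7 by 1.18 (adjusted p = 0.0249) and Myh6 by 0.89 (adjusted p = 0.0319). Of all 10, 6 had a value above 0, and Tnni3 (−0.51) and Tnnt2 (−0.24) were the farthest below it, with a list median of 0.25 against −0.04 over all tested genes. The summed FPKM of the 10 was 29588 to 31164 in sham and 30332 to 33004 in VO libraries of the LV, and 25587 to 29669 and 21212 to 30548 in those of the RV. Markers of other cell types mostly lay below 0 in the same difference of responses. Above 0 were 0 of 8 endothelial markers (median −0.45), 0 of 9 of macrophages and leukocytes (median −0.47, with C1qb called at −0.92 and an adjusted p of 0.0440), 0 of 5 of red blood cells (median −0.67) and 0 of 5 of epicardium (median −0.59). Of the rest, 1 of 5 atrial markers (median −0.36), 1 of 8 of fibroblasts (median −0.36) and 2 of 8 of smooth muscle and pericytes (median −0.57) were above 0. The part of these markers in the Klf9 and Klf13 results was not tested.

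Klf9 and Klf13 followed each other library by library. Over the 12 libraries their log2 values had a Pearson r of 0.93 and a Spearman rho of 0.97, and after the group means were taken off r was 0.83, as a description without a test. Both genes had their highest values in sham RV replicate 1 and VO LV replicate 3 and their lowest in sham LV replicate 1 and VO RV replicate 3. The next highest of the pairs, Klf7 with Klf13 and Klf7 with Klf9, had an r of 0.60 each. Klf15 had an r of 0.51 with Klf9 and 0.43 with Klf13 over all libraries, and 0.12 and 0.02 within the groups.

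**Figure D2:**
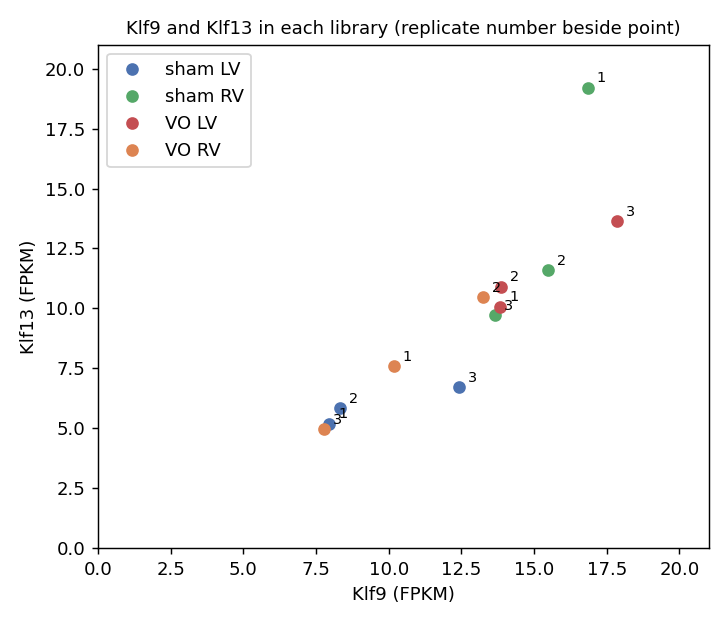
Klf13 (vertical axis, FPKM) against Klf9 (horizontal axis, FPKM) in each of the 12 libraries, coloured by group, with the replicate number beside each point. The points run along 1 line (r = 0.93 on the log2 scale), from sham LV and VO RV replicate 3 at the lower end to sham RV replicate 1 at the upper end.

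Klf15 (ENSRNOG00000017808, chromosome 4, 122365093 to 122377659) had 9.46, 9.68 and 11.1 FPKM in sham LV and 11.9, 11.5 and 13.4 in sham RV. It had 12.3, 10.4 and 13.8 FPKM in VO LV and 13.2, 6.61 and 7.14 in VO RV. The sham groups did not overlap, and VO RV was split, with replicate 1 as high as sham RV and the other libraries below every library of the other groups. The LV response was 0.26 (SE 0.21), the RV response −0.49 (SE 0.21) and their difference 0.75 (SE 0.30, 95% interval 0.10 to 1.40), with an adjusted p of 0.149, so no call was made. Single libraries moved these values in both directions. The LV response was 0.17 without VO LV replicate 3 and 0.36 without VO LV replicate 2, and with the Y-linked covariate it was 0.10. The RV response was −0.79 without VO RV replicate 1. Without VO RV replicate 1 the difference of the responses was 1.05 (adjusted p = 0.0153), and VO LV against VO RV went from 0.47 (adjusted p = 0.424) to 0.77 (adjusted p = 0.0471). Without VO RV replicate 2 the RV response was −0.31, the difference of the responses 0.58 and VO LV against VO RV 0.30. With sham RV replicate 1 and VO RV replicate 2 left out, the difference of the responses was 0.60 (adjusted p = 0.271).

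**Figure D3:**
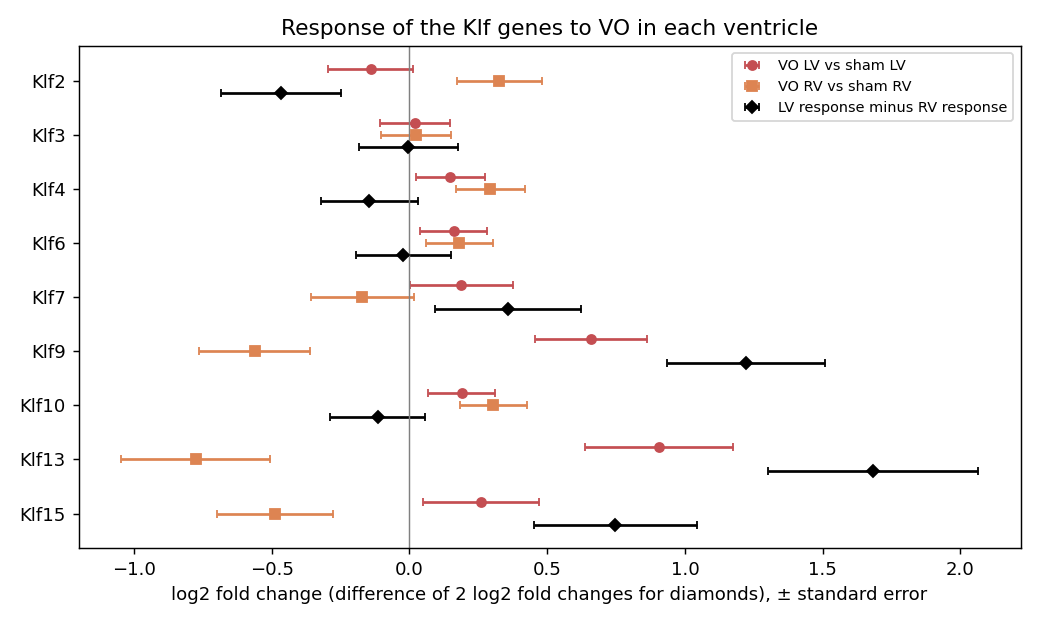
Log2 fold change of VO against sham in the LV (circles) and RV (squares) and the difference of these responses (diamonds), each with its standard error, for the 9 tested Klf genes. The diamonds of Klf13 (1.68) and Klf9 (1.22) lie farthest from 0, with the LV and RV values on opposite sides, and that of Klf15 is at 0.75.

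Klf2 and Klf4, the flow-induced factors of endothelium, passed the test in no comparison. Klf2 (ENSRNOG00000014205) had 80.2, 126 and 85.2 FPKM in the sham LV libraries and 90.5, 76.3 and 92.8 after VO. On the right it had 77.4, 77.7 and 80.0 FPKM in sham libraries and 87.2, 103 and 106 after VO. All VO RV libraries were above all sham RV libraries, by 0.33 (SE 0.15, adjusted p = 0.603), and the LV groups overlapped. Sham LV replicate 2, at 126 FPKM, is the library with the low mitochondrial share, and without it the difference between the sham ventricles went from 0.28 to 0.08 and the LV response from −0.14 to 0.06. Klf4 (ENSRNOG00000016299) had 23.9, 23.9 and 26.8 FPKM in the sham LV libraries and 28.4, 22.2 and 32.9 after VO. On the right it had 25.1, 25.3 and 24.3 FPKM in sham libraries and 27.9, 32.4 and 31.6 after VO. VO RV was above sham RV in all libraries, by 0.29 (SE 0.13, adjusted p = 0.579), and VO LV spanned the sham LV values. The summed FPKM of the endothelial markers was 1368 to 1707 in sham and 967 to 1153 in VO libraries of the LV, and 830 to 953 and 859 to 1220 in those of the RV. The part of endothelial content in the Klf2 and Klf4 levels was not tested.

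Klf10, a factor induced by transforming growth factor beta, had 16.0, 13.3 and 16.1 FPKM in sham LV and 13.7, 13.4 and 13.5 in sham RV. It had 18.5, 16.3 and 16.9 FPKM in VO LV and 19.3, 17.7 and 13.9 in VO RV. In both ventricles each VO library was above each sham library of the same side, although in the LV the nearest values were 16.3 and 16.1 FPKM and in the RV 13.9 and 13.7. The responses were 0.19 (SE 0.12, adjusted p = 0.363) for the LV and 0.30 (SE 0.12, adjusted p = 0.570) for the RV. The LV value was 0.10 without sham LV replicate 2, 0.24 without sham LV replicate 3 and 0.07 with the Y-linked covariate. The RV value was 0.21 without VO RV replicate 1 and 0.44 without VO RV replicate 3. Klf6 (8.76 to 13.2 FPKM) had responses of 0.16 and 0.18 in the LV and RV, both short of the test. With 1 library left out these ran from 0.09 to 0.24 in the LV and from 0.10 to 0.29 in the RV. Klf3, a repressor that works through CtBP, ranged from 10.5 to 14.0 FPKM, and its LV response of 0.02 had a 95% interval from −0.26 to 0.30. Klf7, from 1.86 to 3.32 FPKM, had 0.19 in the LV and −0.17 in the RV (adjusted p = 0.569 and 0.807). The RV value was −0.0036 without sham RV replicate 1 and −0.32 without VO RV replicate 2, and the LV value was 0.10 without VO LV replicate 1. Klf5, which was not tested with the others, had group means between 0.418 and 0.553 FPKM, and with all genes above 0 in the fit its largest difference was −0.19 (SE 0.21, adjusted p = 0.671), between the sham ventricles.

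**Figure D4:**
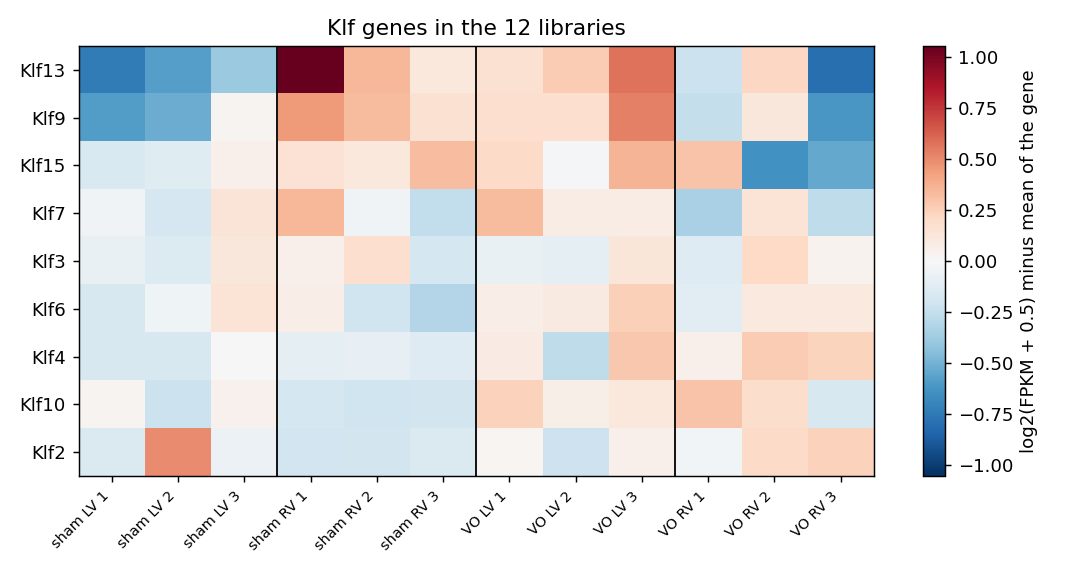
Log2(FPKM + 0.5) of the 9 tested Klf genes (rows) in the 12 libraries (columns), as the difference from the mean of each gene. Klf13 and Klf9 are below their mean in sham LV replicates 1 and 2 and in VO RV replicates 1 and 3, and Klf2 stands out in sham LV replicate 2.

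The order of the group means was the same for Klf13 and Klf9, rising from sham LV through VO RV and VO LV to sham RV. For Klf9 only VO RV and VO LV, neighbours in this order, did not overlap, and for Klf13 all neighbours overlapped. The highest mean was 2.28 times the lowest for Klf13, 1.60 times for Klf9 and 1.36 times for Klf15. For Klf2, Klf4, Klf6, Klf7 and Klf10 this ratio was between 1.23 and 1.29, for Klf5 1.32 and for Klf3 1.05, and none of their neighbours in the order were apart.

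Counted over the family, the sham ventricles differed in 0 of 9 tested genes by limma, against 3.85% of all tested genes. Klf13 missed this call narrowly, at −1.08 (SE 0.27) and an adjusted p of 0.05005 against a threshold of 0.05, and Klf9 was at −0.68 (SE 0.20, adjusted p = 0.0755). The call for Klf13 was made without VO RV replicate 2 (adjusted p = 0.0348) or VO RV replicate 3 (adjusted p = 0.0275), and that for Klf9 without sham LV replicate 3 (−0.87, adjusted p = 0.0469) or VO RV replicate 3 (adjusted p = 0.0499). Without sham RV replicate 1, Klf13 was at −0.80 (adjusted p = 0.173). Before adjustment (p under 0.05, fold change above 1.3), 2 of the 9 genes passed (17.8% of all tested genes), and in 4 of 9 the sham groups did not overlap (32.2%). These were Klf9, Klf13, Klf15 and Klf2, the last by a lowest sham LV value of 80.2 against a highest sham RV value of 80.0 FPKM.

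VO LV against sham LV gave 0 of 9 calls (0.0935% of all tested genes), with 2 of 9 at an unadjusted p (15.7%) and 3 of 9 without overlap (32.4%). VO RV against sham RV gave 0 of 9 (0% of all tested genes), with 3 of 9 at an unadjusted p (4.91%) and 4 of 9 without overlap (12.5%). VO LV against VO RV gave 0 of 9 (0.00719%), with 3 of 9 at an unadjusted p (7.4%) and 1 of 9, Klf9, without overlap (16.1%). The difference of the responses gave 2 of 9 calls (4.19% of all tested genes) and 3 of 9 at an unadjusted p (23.1%), the third being Klf15. Voom on the reads recovered from the FPKM gave 0, 0, 0, 0 and 2 calls in the same order of comparisons. Over all 13910 tested genes voom gave 684, 339, 0, 1 and 804 calls. With 9 genes, these shares rest on 1 to 4 genes each. The median log2 change of the 9 genes was 0.19 in the LV, where 8 of 9 were above 0, and 0.02 in the RV, where 5 of 9 were, beside −0.02 and 0.00 over all tested genes.

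The calls in the lists that follow share the limits of the fit. Without sham LV replicate 1 or 2, sham RV replicate 1 or VO LV replicate 2 or 3, and with a block of surgery and number, 0 of all tested genes were called in the difference of responses, so every call named in it was lost. Between the sham ventricles 0 of all tested genes were called without sham RV replicate 1, the atrial-rich library, 1 without sham LV replicate 2 and 3 without sham LV replicate 1.

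Relatives outside these 10 gave no call. Of 8 tested Klf and Sp genes, 0 were called in any comparison by limma, and at an unadjusted p 1 passed between the sham ventricles (17.8% of all tested genes), 2 in the LV (15.7%), 0 in the RV (4.91%), 0 between the VO ventricles (7.4%) and 1 in the difference of responses (23.1%). Klf11, the nearest relative of Klf10, had 12.9 ± 2.1 FPKM in sham LV and 17.7 ± 0.81 in VO LV (log2 change 0.46, adjusted p = 0.107), and 13.5 ± 1.5 in sham RV and 13.7 ± 2.6 in VO RV. Klf12 was at 1.06 ± 0.34 FPKM in sham and 1.74 ± 0.16 in VO for the LV and at 1.90 ± 0.23 and 1.45 ± 0.41 for the RV, with a difference of responses of 0.85 (adjusted p = 0.108). Sp1, the founding member of the wider family, lay between 9.50 and 11.1 FPKM in the group means.

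Among 22 tested partners and regulators of these factors, 5 were lower in the LV of sham rats than in their RV (3.85% of all tested genes were called there in either direction) and 3 had a larger response in the LV (4.19% of all). Gata4 (−0.77, adjusted p = 0.0343) and Srf (−0.73, adjusted p = 0.0319), transcription factors of the cardiac muscle programme, were among the 5. Fbxw7 (−0.55, adjusted p = 0.0389), a ubiquitin ligase subunit, and Mef2d (−0.67, adjusted p = 0.0418) were also lower in sham LV. Srf (0.93, adjusted p = 0.0309), Mef2d (1.11, adjusted p = 0.0312) and Mef2a (1.29, adjusted p = 0.0463) had the larger LV response. Gata4, with which Klf13 works, was at 43.9 ± 8.7 FPKM in sham and 72.8 ± 4.0 in VO for the LV and at 74.5 ± 9.4 and 69.6 ± 9.0 for the RV, and its difference of responses was 0.84 (adjusted p = 0.0514), short of a call. Over the list, 0 of 22 were called in either ventricle alone, with 7 (LV, 15.7% of all tested genes) and 1 (RV, 4.91% of all) at an unadjusted p.

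Of 20 genes known as induced or repressed by Klf15, 3 had a larger response in the LV, where 4.19% of all tested genes were called in either direction. Pdk4, the kinase that turns off pyruvate oxidation, was at 7.92 ± 3.5 FPKM in sham and 34.6 ± 5.7 in VO for the LV and at 19.2 ± 6.0 and 18.2 ± 8.6 for the RV, a difference of responses of 2.30 (SE 0.58, adjusted p = 0.0491). Ppargc1a, the coactivator of mitochondrial biogenesis, was called at 1.31 (adjusted p = 0.0329). Cpt1b, an enzyme of fatty acid entry into mitochondria, was called at 0.69 (adjusted p = 0.0484). Between the sham ventricles Ppargc1a was lower in the LV (−0.78, adjusted p = 0.0496) and Nppb, the natriuretic peptide gene that Klf15 represses, was higher (1.20, adjusted p = 0.0325). In the LV 18 of the 20 had a value above 0 (median 0.36, against −0.02 for all tested genes) and in the RV 4 of 20 (median −0.13, against 0.00), while 0 of 20 were called in either, with 7 and 3 at an unadjusted p (15.7% and 4.91% of all). The list pools induced and repressed genes, and the repressed Nppa, Nppb, Acta1 and Ccn2 (listed as Ctgf) were above 0 in the LV like most of the induced ones, at 0.39, 0.70, 0.42 and 1.05. In the RV, Nppa (0.75), Nppb (0.83) and Ctgf (0.92) were 3 of the 4 genes above 0. Nppa is also an atrial marker, and the atrial sum was 4559 in VO RV replicate 2 against 250 and 311 in the other VO RV libraries.

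The 13 tested adipogenic and lipid factors linked to Klf genes gave 3 calls in the difference of responses (4.19% of all tested genes), Ppara (1.54, adjusted p = 0.0249), Acsl1 (0.94, adjusted p = 0.0317) and Ppard (0.65, adjusted p = 0.0352). Ppara and Ppard are nuclear receptors for fatty acids, and Acsl1 activates long-chain fatty acids. Of the 13, 9 had a difference of responses above 0 (median 0.33, against −0.04 over all tested genes). The adipogenic factors Cebpd (−0.68), Cebpa (−0.40) and Pparg (−0.35) were the farthest below 0, without a call. Ppara was at 2.95 ± 0.76 FPKM in sham and 6.01 ± 1.4 in VO for the LV and at 6.17 ± 0.29 and 3.84 ± 0.44 for the RV, the same order of groups as Klf9. Ppara (−0.97, adjusted p = 0.0325) and Acsl1 (−0.55, adjusted p = 0.0462) were also lower in the LV when the sham ventricles were compared (3.85% of all tested genes called).

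Glucocorticoid-inducible genes, to which Klf9 belongs by its known control, gave 3 of 20 tested rows between the sham ventricles (3.85% of all tested genes) and 2 of 20 in the difference of responses (4.19% of all). Tsc22d3, a classical glucocorticoid target, has 2 rows under its name. In 1 of them (ENSRNOG00000060899) it was lower in sham LV (−1.42, adjusted p = 0.0361) with a difference of responses of 1.96 (adjusted p = 0.0329). The other row (ENSRNOG00000056135) was at −0.16 and 0.04 (adjusted p = 0.287 and 0.882), so the gene as a whole is uncertain. Zbtb16 was called in the difference of responses (1.89, adjusted p = 0.0491). Sgk1 (0.46, adjusted p = 0.0493) and 1 of the 2 rows named Mt1 (0.94, adjusted p = 0.0386) were higher in sham LV, opposite to Klf9. The median of the list was −0.10 (LV) and 0.00 (RV).

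Of 17 tested endothelial targets of Klf2 and Klf4, Cav1 (0.43, adjusted p = 0.0423) and the water channel gene Aqp1 (0.48, adjusted p = 0.0494) were higher in sham LV than in sham RV, and 5 of 8 tested endothelial markers were higher there too, against 3.85% of all tested genes called. In the RV 15 of the 17 had a value above 0 (median 0.11, against 0.00 for all tested genes), with 0 calls and 2 at an unadjusted p (4.91% of all). In the LV 9 of 17 did (median 0.02), with 0 calls and 0 at an unadjusted p (15.7% of all). Nos3, the endothelial nitric oxide synthase gene, was at 18.8 ± 0.85 FPKM in sham RV and 20.1 ± 3.9 in VO RV (log2 change 0.08, adjusted p = 0.874).

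Immediate early genes, the class to which Klf6 and Klf10 are close, leaned upward on both sides. In the LV 18 of 21 were above 0 (median 0.34) and in the RV 20 of 21 (median 0.29), but the call was limited to Nr4a1 in the LV, at 6.86 ± 0.57 FPKM in sham LV and 15.6 ± 2.5 in VO LV (log2 change 1.12, adjusted p = 0.0333). With the Y-linked covariate, and without sham LV replicate 1 or 2 or any of the VO LV libraries, 0 of all tested genes were called in the LV, so this call was lost too. Nr4a1, an orphan nuclear receptor, was at 8.69 ± 1.1 in sham RV and 16.7 ± 2.4 in VO RV (log2 change 0.91, adjusted p = 0.312). At an unadjusted p 5 passed in the LV and 4 in the RV (15.7% and 4.91% of all tested genes), while 1 call in the LV stands beside 0.0935% of all. Of 18 genes induced by transforming growth factor beta, 0 were called in any comparison, and at an unadjusted p 8 passed between the sham ventricles (17.8% of all tested genes) and 7 between the VO ventricles (7.4% of all). At an unadjusted p 2 passed in the LV (15.7% of all), 1 in the RV (4.91%) and 2 in the difference of responses (23.1%). Of these 18 genes, 4 were above 0 between the sham ventricles (median −0.37) and 4 between the VO ventricles (median −0.33). In the LV response 9 of 18 were above 0 (median −0.01) and in the RV response 16 of 18 (median 0.13).

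**Figure D5:**
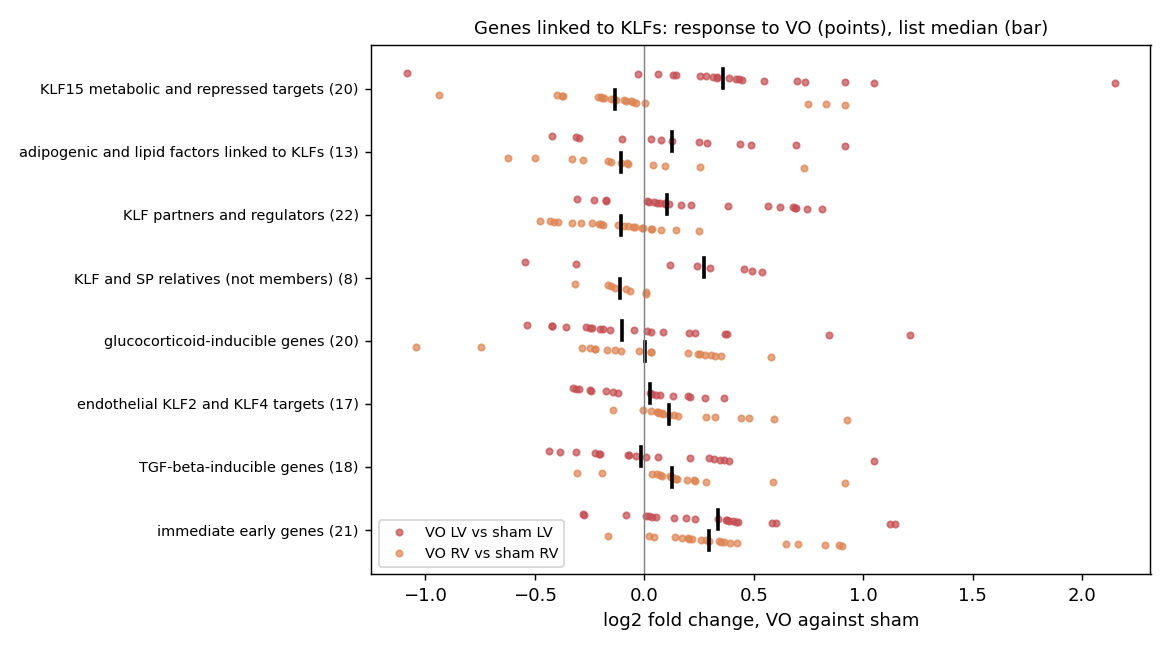
Log2 fold change of VO against sham for each tested gene of 8 lists linked to Klf genes (points, with the number of genes in brackets) in the LV and the RV, with the list median as a bar. For the Klf15 list the medians are 0.36 in the LV and −0.13 in the RV, and for the immediate early genes 0.34 and 0.29.

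The genes whose log2 values followed a Klf gene most closely over the 12 libraries were sought among tested genes with a mean of at least 1 FPKM. Klf13 was nearest to the gene AABR07026002.1 (Pearson r 0.99) and to Prrc2b (0.98). Klf9 was nearest to Pacs1 (0.98). Klf15 was nearest to Ndrg2 (0.92) and D2hgdh (0.92), Klf3 to Rasa3 (0.91) and Msn (0.88), and Klf4 to Ackr3 (0.91) and to the proliferation marker Mki67 (0.90). These are descriptions over libraries that share groups, and of 13910 genes some must lie close to any pattern.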

How the data were processed

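RNA of LV and RV free walls was sequenced in 12 libraries, with 3 in each of 4 groups taken from the sample labels. The authors aligned clean reads with HISAT2 2.0.5, counted them per gene with featureCounts 1.5.0-p3 and deposited FPKM. The build and annotation are not given in the sources used here. Multiplied by gene length, 100% of the values below 200 reads were whole numbers (tolerance 0.02), which gave back the reads. Depth was 14121713 to 16871371 reads per library.

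The log2 of FPKM plus 0.5 was taken after median-ratio scaling, so changes of low genes are understated. Genes averaging 0.5 FPKM or more (13910 of 32545) were tested with limma 3.58.1 in R 4.3.3 (eBayes with trend) in 1 model of 4 groups, with 5 comparisons. P values were adjusted by Benjamini-Hochberg over all tested genes within a comparison. A gene was called at an adjusted p below 0.05 with a fold change above 1.3. DESeq2, which the authors used, was not run. Group pairs were also compared gene by gene with exact permutation tests (two-sided). The fit was tested on simulated data. The other values (list medians, correlations, motif counts) came from Python 3.11.15.

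The Klf genes, the gene lists and the tests were chosen with earlier results of these data known. All 10 Klf genes are named. Of each list up to 4 called genes with the smallest adjusted p per comparison are named, and for at most 5 Klf genes the 2 most similar genes. A gene that this rule selects is not reported here. Gata4 in the difference of responses, Klf11, Klf12, Sp1, Nos3, Cebpd, Cebpa, Pparg and the second Tsc22d3 row were named after their values were seen. Alternatives were other scalings, pseudocounts of 1 and 0.1, other filters, separate fits, replicate blocks, array weights, voom, removal of the gene-length trend, a Y-linked covariate and each library left out. The reading of libraries low in Y-linked transcripts was added after the data were seen.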

Additional observations from a re-analysis of the deposited data

Results flagged for a closer look

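The response to VO differed between the ventricles for 2 of 9 tested Klf genes by the test of the difference itself, in which 4.19% of all tested genes were called. For Klf13 the LV response exceeded the RV response by 1.68 on the log2 scale, with all 3 VO LV libraries above all 3 sham LV libraries and a VO RV group that overlapped sham RV. For Klf9 it did so by 1.22, with all VO LV libraries above sham LV and all VO RV libraries below sham RV. Both calls were lost in 8 of the 12 fits that left out 1 library.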

How the results depend on the processing

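The 2 calls in the difference of responses (Klf9 and Klf13) became 0 with all genes above 0 in the fit, with each replicate block, with the Y-linked covariate and with sham RV replicate 1 and VO RV replicate 2 left out, and lay between 0 and 3 with 1 library left out. The 0 calls between the sham ventricles became 1 without rescaling, with quantile normalization or with a mean of at least 1 FPKM, and 2 with array weights or an unadjusted p, and lay between 0 and 2 with 1 library left out. The 0 calls in the LV became 1 (Klf13) with a separate fit or array weights and 2 with an unadjusted p. The 0 calls in the RV became 3 with an unadjusted p. The 0 calls between the VO ventricles became 3 with an unadjusted p, and lay between 0 and 1 (Klf15, without VO RV replicate 1) with 1 library left out. In these cases the cause was not tested.

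Same-numbered libraries correlated between −0.22 and 0.12 after the group means were taken off, so the numbers are not treated as pairs. With the replicate number as a block the adjusted p for Klf13 and Klf9 was 0.0753 and 0.0857, with 0 calls among the Klf genes, and with a block of surgery and number 0.149 and 0.155.

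The directions that turned belonged to changes of at most 0.152. With array weights Klf7 between the sham ventricles was 0.0018, and Klf3 was −0.024 in the LV, −0.0619 in the RV and 0.0379 in the difference of responses. Without the gene-length trend Klf4 and Klf3 between the sham ventricles were 0.0143 and 0.0294, and Klf3 in the LV −0.0404. With the Y-linked covariate Klf10 between the VO ventricles was −0.0241 and Klf3 in the difference of responses 0.00348. With both atrial-rich libraries out Klf7 between the sham ventricles was 0.122, and Klf3 was −0.0458 in the RV, 0.0356 between the VO ventricles and 0.0683 in the difference of responses. With 1 library left out, values between the sham ventricles ran from −0.0609 to 0.0217 for Klf4, −0.150 to 0.0298 for Klf3 and −0.183 to 0.123 for Klf7. In the LV they ran from −0.263 to 0.0631 for Klf2 and −0.0539 to 0.0949 for Klf3, and in the RV from −0.0763 to 0.108 for Klf3. Between the VO ventricles they ran from −0.275 to 0.000695 for Klf4, −0.104 to 0.131 for Klf10 and −0.139 to 0.0356 for Klf3. In the difference of responses they ran from −0.269 to 0.00722 for Klf4, −0.0882 to 0.0954 for Klf3 and −0.130 to 0.0619 for Klf6. Klf9 ran from 1.04 to 1.41 and Klf13 from 1.41 to 1.93.

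Counts over all tested genes also moved. Over the alternatives at the adjusted threshold, the 536 calls between the sham ventricles ranged from 0 to 1321, the 13 in the LV from 0 to 704, the 0 in the RV from 0 to 2, the 1 between the VO ventricles from 1 to 48 and the 583 in the difference of responses from 0 to 1045. The values of Klf13 rest on 48 to 191 reads a library and those of Klf5 on 13 to 43.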
